A study of Homo sapiens with 3 samples.

Results

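MESP1 is a basic helix-loop-helix transcription factor that marks newly formed mesoderm leaving the primitive streak. The cells described here are those of 1 single-cell RNA library, from human embryonic stem cells treated with CHIR99021 and Activin A, that held at least 2 UMIs (unique molecular identifiers, 1 for each captured mRNA molecule) of MESP1 and 0 of SOX17, a transcription factor of definitive endoderm. The rule was applied to barcodes with at least 2000 detected genes and at most 15% mitochondrial UMIs. It chose 79 of 6876 kept cells of that library, a share of 1.15% (exact Clopper-Pearson 95% interval 0.911 to 1.43%), out of 23361 kept cells in the series. They are compared with the 6617 kept cells of the same library that held no MESP1 UMI.

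The study grew HES3 MIXL1:GFP, an established human embryonic stem cell line with a GFP reporter at MIXL1, as colonies on micropatterned coverslips, and exposed them to signals of the streak. After 24 h of growth with 10 µM of the ROCK inhibitor Y-27632, the colonies received 48 h of 3 µM CHIR99021, a GSK3 inhibitor that activates the WNT pathway, with 100 ng/mL Activin A (CHIR+Activin), 6 µM CHIR99021 alone (CHIR), or 50 ng/mL BMP4 (BMP4), all in mTeSR Plus. Each treatment is 1 library of about 10 pooled micropatterns, prepared with the 10x 3′ v3.1 chemistry. No untreated library is among the samples, and with 1 library a treatment no difference has a replicate check.

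During gastrulation, NODAL and Activin signal through SMAD2 and SMAD3 with FOXH1, and WNT signals through beta-catenin with TCF and LEF factors, to switch on streak genes such as EOMES, MIXL1 and TBXT. EOMES acts upstream of both MESP1 in mesoderm and SOX17 in endoderm. Mesoderm cells then switch on TBX6, APLNR or HAND1, and BMP favours lateral and extraembryonic mesoderm genes such as HAND1.

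After filtering, the CHIR+Activin library held 130592423 UMIs in its 6876 cells, at a median of 17202 a cell. The CHIR library had 7084 cells at a median of 22919.5 UMIs and the BMP4 library 9401 cells at a median of 12623. Between 8 and 12 cell barcodes were shared by each pair of libraries. Of the 79 MESP1-positive cells, 2 had a barcode also seen in the BMP4 library and 1 a barcode also seen in the CHIR library. Of the 6617 MESP1=0 cells, 9 had a barcode also seen in BMP4 and 10 a barcode also seen in CHIR. The source of the shared barcodes was not tested.

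Members of the MESP1-positive group were close in depth to the cells they are compared with. Their UMI totals ran from 9846 to 57711 with a median of 18412, against a median of 17168 in MESP1=0 cells. They had a median of 5411 detected genes and 4.84% mitochondrial UMIs, against 5310 genes and 4.69% in MESP1=0 cells. Of the 79, 4 held over 40000 UMIs, and 5 were among the highest-scoring 6% of the library by a simulated-doublet score.

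MESP1 itself, used by the rule, was rare and uneven in the CHIR+Activin library. It gave 626 UMIs, or 4.79 counts scaled to a library total of 1e+06 (CPM), with a variance 6.77 times its mean across cells, and 6617 cells at 0, 165 at 1 and 94 at 2 or more. The 79 chosen cells held 375 of these UMIs (59.9%), with a lowest of 2, a median of 3 and a highest of 21 a cell. In the CHIR library the same gene gave 136 UMIs at a variance 1.05 times its mean, no cell exceeded 2 UMIs, and 5 cells met the rule. That is too few to compare further. In the BMP4 library 3895 cells met it, 41.4% of the cells kept there. MESP1 and SOX17 were left out of every count of genes compared below.

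The other markers of the label were higher in MESP1-positive cells than in MESP1=0 cells. MIXL1, a homeobox factor of the streak and the locus of the reporter, had 2 UMIs in the lowest MESP1-positive cell, 11 in the median and 33 in the highest, against 0, 1 and 44 in MESP1=0 cells. Summed over cells it reached 647 CPM in MESP1-positive cells, against 160 CPM in MESP1=0 cells, a log2 ratio of 2.02 (95% interval 1.92 to 2.11). EOMES, the T-box factor upstream of mesoderm and endoderm, had 1, 6 and 24 UMIs in the lowest, median and highest MESP1-positive cell, against 0, 1 and 29 in MESP1=0 cells, and 343 CPM against 87.3 CPM (log2 ratio 1.97, 1.85 to 2.10). Every MESP1-positive cell held UMIs of both genes, but the ranges of the groups overlapped for each.

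TBX6, the T-box factor of presomitic mesoderm, separated fewer cells. It was found in 31 of the 79 MESP1-positive cells, at up to 5 UMIs, and in 2.46% of MESP1=0 cells, at up to 3. Its summed level was 27.3 CPM in MESP1-positive cells, against 1.35 CPM in MESP1=0 cells (log2 ratio 4.34, 3.82 to 4.83). MSGN1, a bHLH factor of presomitic mesoderm, gave 3 UMIs in the MESP1-positive cells and 3 in the 6617 MESP1=0 cells. Intervals here and below come from counts (exact Poisson for CPM, exact conditional binomial for ratios, Clopper-Pearson for shares), and cover counting error only.

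To set shares of cells beside each other, each cell was thinned to 10000 UMIs, which left 78 MESP1-positive and 6290 MESP1=0 cells. MIXL1 was then found in 97.4% of MESP1-positive cells, against 56.3% of MESP1=0 cells. EOMES was found in 92.3% of MESP1-positive cells, against 42.0% of MESP1=0 cells, and TBX6 in 21.8%, against 1.49%. At least 1 of TBX6, FOXC1, HAND1 and APLNR was found in 60.3% of MESP1-positive cells (48.5 to 71.2%), against 3.66% of MESP1=0 cells. The rest of the MESP1-positive cells showed none of these 4 genes at this depth.

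**Figure D1:**
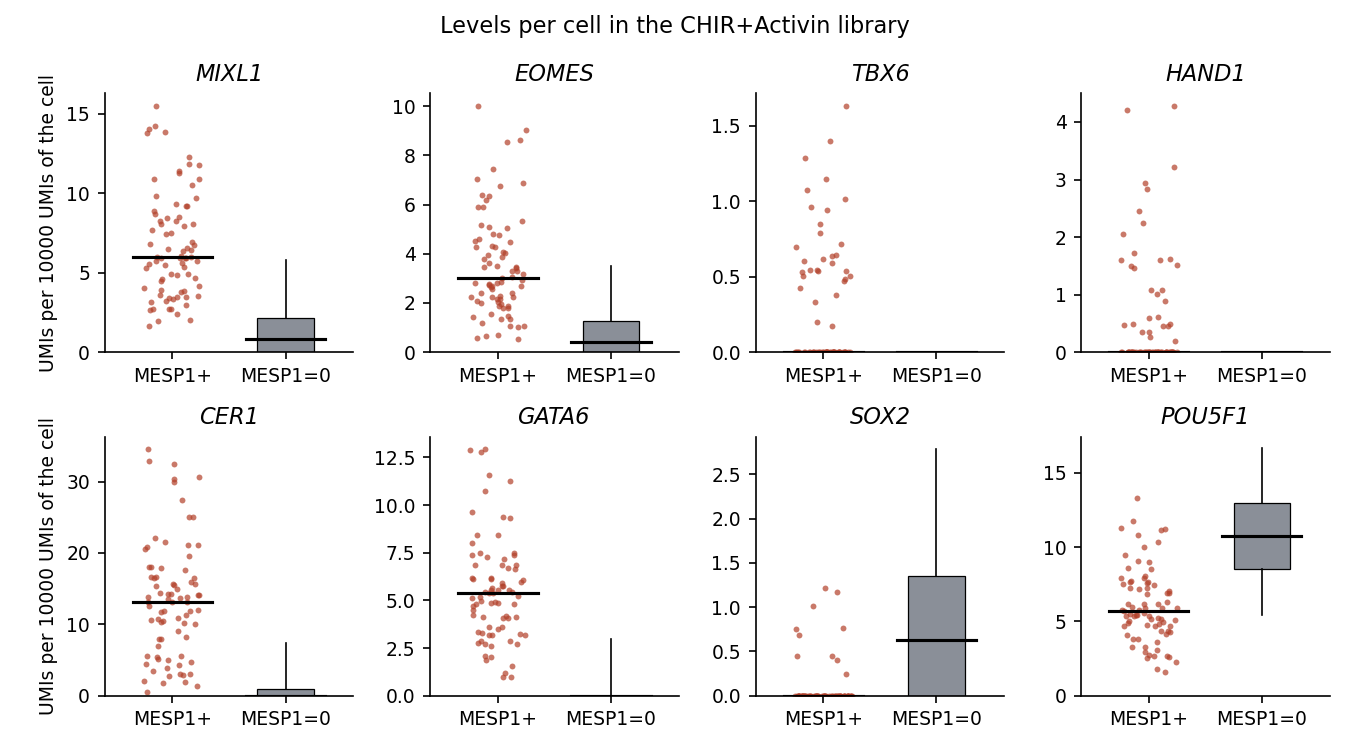
UMIs per 10000 UMIs of the cell for 8 genes in the CHIR+Activin library. Left, each point is 1 of 79 MESP1-positive cells and the bar their median; right, boxes give the quartiles, median and the 5th to 95th percentiles of the 6617 MESP1=0 cells. MIXL1, EOMES, CER1 and GATA6 are above 0 in all 79 MESP1-positive cells, TBX6 in 31, HAND1 in 30 and SOX2 in 10.

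Promoter sequences are given as context only, with letters of the FOXH1 type and of the TCF and LEF type among those searched. Both groups of cells compared received the same treatment, and any part of these factors in the ratios was not tested. The RefSeq promoter table (GRCh38.p14) was searched for 34 genes: the 3 markers, the named genes of the highest ratios, the nascent mesoderm and streak genes compared, and MESP2. Of these, 24 had entries, 34 in number, and LGR5, APLNR, BMP2, LHX1, LZTS1, DLL3, HAS2, FGF4, FGF8 and TDGF1 had none. In the 250 bases before the start, on either strand, the FOXH1-type letters AATCCACA stood in 3 of the 34 entries (8.82%, against 0.709% of all 35116 entries). Those were MIXL1, MESP2, the MESP1 paralog next to it in the genome, and SP5, a zinc-finger factor and WNT target. MESP2 was searched although its level was below the 20 CPM minimum for comparison. The TCF-type letters CTTTGAA stood in 3 entries (8.82%, against 3.80% of all), of SP5, TBXT and CNKSR3. The windows below show the matches of 4 of these genes in capitals, in the gene's own direction, because they are streak or mesoderm genes of these lists.
MIXL1 (chr1:226223414-226223458, plus strand, FOXH1-type letters on the opposite strand): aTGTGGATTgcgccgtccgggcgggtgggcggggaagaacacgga
MESP2 (chr15:89776141-89776220, plus strand, FOXH1-type letters on the gene's strand): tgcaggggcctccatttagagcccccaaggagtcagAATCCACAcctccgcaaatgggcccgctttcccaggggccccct
SP5 (chr2:170715147-170715295, plus strand, opposite strand; the FOXH1-type letters overlap the first TCF-type match by 2 bases): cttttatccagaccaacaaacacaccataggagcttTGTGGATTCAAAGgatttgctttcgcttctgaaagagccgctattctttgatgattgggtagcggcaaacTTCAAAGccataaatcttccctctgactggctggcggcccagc
TBXT (chr6:166167897-166167975, minus strand, TCF-type letters on the opposite strand, 1 of 2 entries): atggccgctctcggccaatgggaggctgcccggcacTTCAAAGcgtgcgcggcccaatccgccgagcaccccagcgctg

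The other letters searched were TCACAC for T-box factors in 14.7% of the 34 entries (9.90% of all), AGATAA for GATA factors in 11.8% (9.17% of all), CAGCTG for E-boxes in 17.6% (13.99% of all) and TAATCC for GSC and OTX2 in 2.94% (5.62% of all). A match is a run of letters and not a shown binding site. Of the genes printed, MIXL1, MESP2 and TBXT were higher in MESP1-positive cells, while SP5 had 135 CPM in MESP1-positive cells, against 126 CPM in MESP1=0 cells (log2 ratio 0.10).

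Across genes, MESP1-positive cells differed from MESP1=0 cells in both directions. Of 7780 genes with at least 20 CPM in either group, 297 were at least 2-fold higher (3.82%) and 333 at least 2-fold lower (4.28%) in MESP1-positive cells. Together these make 630 genes, 8.1% of those compared. Past 4-fold, 127 genes were higher and 57 were lower. The whole interval lay beyond 2-fold for 216 of the higher and 136 of the lower genes. The median log2 ratio over all genes compared was 0.01. Both counts past 2-fold fell with a MESP1 minimum of 1 UMI, to 161 higher and 37 lower. They rose when cells were chosen after thinning, as given at the end.

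The nascent mesoderm list had the highest median of the lists compared. Of its 21 genes, 9 could be compared, all at least 2-fold higher in MESP1-positive cells with a median log2 ratio of 4.14, but 6 of the 9 reached 20 CPM only in those cells, so their direction was fixed by that minimum. APLNR, the apelin receptor of migrating mesoderm, had 65.9 CPM in MESP1-positive cells, against 1.84 CPM in MESP1=0 cells (log2 ratio 5.16, 4.82 to 5.50). FOXC1, a forkhead factor of paraxial and intermediate mesoderm, had 22.2 CPM in MESP1-positive cells, against 0.407 CPM in MESP1=0 cells. RSPO3, a secreted WNT enhancer, had 26.6 CPM against 0.647 CPM. The 3 that passed the minimum in both groups were LHX1 (366 CPM in MESP1-positive cells, against 20.8 CPM), HAS2, a hyaluronan synthase of migrating mesoderm (551 against 89.8 CPM), and CYP26A1, which breaks down retinoic acid (274 against 27.2 CPM). MEOX1, a somite factor, was at 0 in MESP1-positive cells. MESP2 had 26 UMIs there, 16.5 CPM against 0.639 CPM in MESP1=0 cells (log2 ratio 4.69). Reads of paralogs such as MESP1 and MESP2 could be split by the counting.

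HAND1, the bHLH factor of lateral plate and extraembryonic mesoderm, had the largest ratio of any gene named by the rule for ratios. It gave 80 UMIs in 30 of the 79 MESP1-positive cells, at up to 9 a cell, and 26 UMIs in 0.332% of MESP1=0 cells, at up to 3. That made 50.7 CPM in MESP1-positive cells (40.2 to 63.1), against 0.208 CPM in MESP1=0 cells (log2 ratio 7.93, 7.28 to 8.63). HAND1 reached 20 CPM only in MESP1-positive cells, so its direction was fixed by that minimum. After thinning, 26.9% of MESP1-positive cells and 0.191% of MESP1=0 cells held a UMI. Most MESP1-positive cells had none.

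Of the 20 genes on the lateral and cardiac mesoderm list, 8 could be compared; 7 were at least 2-fold higher, 0 lower, at a median log2 ratio of 2.39, and 5 reached the minimum only in MESP1-positive cells. GATA6, a zinc-finger factor of mesoderm and endoderm, had 2, 9 and 36 UMIs in the lowest, median and highest MESP1-positive cell, against 0, 0 and 34 in MESP1=0 cells, and 536 CPM against 42.1 CPM (log2 ratio 3.67). GATA4 had 65.9 CPM in MESP1-positive cells, against 14.2 CPM in MESP1=0 cells. BMPER, a secreted BMP modulator, had 50.7 against 1.85 CPM. HAND2, ISL1, FOXF1, NKX2-5 and TBX5, factors of later cardiac and splanchnic mesoderm, were all at 0 UMIs in MESP1-positive cells, where 0 allows up to 1.90 CPM. KDR, the VEGF receptor of blood and vessel progenitors, had 24.1 CPM in MESP1-positive cells, against 43.0 CPM in MESP1=0 cells (log2 ratio -0.84).

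Streak genes differed among themselves. Of 13 compared genes of the primitive streak list, 5 were at least 2-fold higher and 1 lower, with a median log2 ratio of 0.58. Of the 11 that reached 20 CPM in both groups, 4 were higher and 0 lower. TBXT (brachyury), the T-box factor of streak and notochord, had 197 CPM in MESP1-positive cells, against 47.5 CPM in MESP1=0 cells (log2 ratio 2.05). GSC, a homeobox factor of anterior streak, had 81.8 against 18.2 CPM (2.17). NODAL, the streak ligand, had 181 CPM in MESP1-positive cells and 178 CPM in MESP1=0 cells (0.03). GDF3, a NODAL-related ligand, had 14.6 against 58.2 CPM. GSC reached 20 CPM only in MESP1-positive cells and GDF3 only in MESP1=0 cells, so their direction was fixed by that minimum.

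MESP1-positive cells also carried genes shared with endoderm and anterior streak. Of 8 compared genes of the definitive endoderm list, 5 were at least 2-fold higher and 1 lower, with a median log2 ratio of 2.31; GATA4, GATA6 and LGR5 stand on it too, and 3 of the 8 reached the minimum only in MESP1-positive cells. CER1, a secreted antagonist of NODAL, BMP and WNT, had 1, 24 and 87 UMIs in the lowest, median and highest MESP1-positive cell, against 0, 0 and 156 in MESP1=0 cells. Its summed level was 1289 CPM in MESP1-positive cells, against 136 CPM in MESP1=0 cells (log2 ratio 3.24, 3.18 to 3.31). LGR5, a receptor for R-spondins, had 76.7 against 1.97 CPM (5.28). FOXA2, the forkhead factor of endoderm and axial mesoderm, had 22.2 CPM in MESP1-positive cells, against 41.1 CPM in MESP1=0 cells (-0.89). TTR and RLBP1 were at 0 in MESP1-positive cells. SOX17 was 0 by the rule.

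Several ligands and a secreted antagonist were higher in MESP1-positive cells than in MESP1=0 cells. WNT5A, a non-canonical WNT ligand, was found in 56 of the 79 MESP1-positive cells, at up to 12 UMIs, with 103 CPM against 2.51 CPM in MESP1=0 cells (log2 ratio 5.35, 5.07 to 5.63). GRP, gastrin-releasing peptide, had 71.0 CPM in MESP1-positive cells, against 1.64 CPM in MESP1=0 cells (5.44), and BMP2 had 113 against 4.97 CPM (4.51). WNT5A, GRP and BMP2 reached 20 CPM only in MESP1-positive cells, so their direction was fixed by that minimum. FGF17, an FGF ligand, was present in every MESP1-positive cell, at 2 to 42 UMIs, with 766 CPM against 99.8 CPM (2.94). DKK1, a WNT antagonist, had 162 against 26.1 CPM (2.64). FGF17 and DKK1 were higher still, at 996 and 296 CPM, in 87 cells with at least 2 SOX17 UMIs and no MESP1 UMI. Those cells, described further below, had 71.3 CPM of BMP2, 41.7 CPM of GRP and 12.7 CPM of WNT5A.

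The remaining genes named by the rule for high ratios were CHL1, a neural adhesion molecule (log2 ratio 4.35), CNKSR3, a signalling scaffold (4.14), PLXNA2, a semaphorin receptor (3.74), LZTS1, a cytoskeletal regulator (3.64), the lncRNA GATA6-AS1 (4.39) and ENSG00000287231 (4.04). GATA6-AS1 neighbours GATA6 in antisense, and the sources used here do not say whether the counting used strand. For ENSG00000287231, 1 cell held 21.6% of the UMIs.

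Pathway lists had smaller medians than the mesoderm list. Of 13 compared WNT target genes, 5 were at least 2-fold higher and 0 lower, with a median log2 ratio of 0.58, 5 of the 13 reaching the minimum only in MESP1-positive cells. The direct feedback gene AXIN2 had 33.0 CPM in MESP1-positive cells and 30.6 CPM in MESP1=0 cells (0.11). Of 13 NODAL and Activin targets, 3 were higher and 2 lower (median 0.03). LEFTY1 and LEFTY2, NODAL antagonists with near-identical sequence whose counts are therefore uncertain, had 92.5 and 44.4 CPM in MESP1-positive cells, against 154 and 132 CPM in MESP1=0 cells. Of 8 BMP ligand and target genes, 4 were higher and 0 lower (median 0.67), with 4 reaching the minimum only in MESP1-positive cells. The immediate BMP targets ID1 and ID3 had 151 and 171 CPM in MESP1-positive cells, against 196 and 214 CPM in MESP1=0 cells. Of 14 FGF and ERK genes, 1 was higher and 1 lower (median -0.12), and of 7 NOTCH genes, 1 was higher and 0 lower (median -0.12). That 1 was DLL3, a NOTCH ligand (log2 ratio 2.60), which reached the minimum only in MESP1-positive cells.

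Genes of epithelial to mesenchymal transition went both ways. Of 13 compared, 5 were at least 2-fold higher and 2 lower (median -0.13), with 4 reaching the minimum only in MESP1-positive cells. SNAI1 and ZEB2, repressors of epithelial genes, had 57.0 and 38.0 CPM in MESP1-positive cells, against 8.79 and 1.93 CPM in MESP1=0 cells. CDH2 (N-cadherin) had 444 CPM in MESP1-positive cells, against 168 CPM in MESP1=0 cells (log2 ratio 1.41). CDH1 (E-cadherin) had 68.5 against 145 CPM (-1.09), and OCLN, a tight junction protein, 10.8 against 33.9 CPM (-1.65). OCLN reached 20 CPM only in MESP1=0 cells, so its direction was fixed by that minimum. EPCAM, an epithelial adhesion protein, had 146 against 204 CPM (-0.48). Among 13 extracellular matrix genes, 5 were higher and 1 lower (median 0.62), and among the 11 at the minimum in both groups 3 were higher and 1 lower. The fibrillar collagen genes COL5A1 and COL5A2 had log2 ratios of 2.99 and 2.79, FBN2 (fibrillin) 2.77, and VCAN (versican) -1.31. Of 16 guidance and vascular receptor genes, 6 were higher and 6 lower (median -0.59), against 4 higher and 3 lower among the 11 at the minimum in both groups. ROR2, a WNT5A receptor, was at 725 CPM in MESP1-positive cells, against 125 CPM in MESP1=0 cells, and its paralog ROR1 was at 33.6 against 139 CPM.

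Pluripotency genes were lower in part. Of 19 compared genes of the epiblast list, 8 were at least 2-fold lower and 2 higher in MESP1-positive cells, OTX2 among them, with a median log2 ratio of -0.54. Of the 15 that reached the minimum in both groups, 5 were lower and 1 higher. SOX2, the SOX factor of epiblast and neural cells, was found in 10 of the 79 MESP1-positive cells, against 63.2% of MESP1=0 cells, and had 13.9 against 88.4 CPM (log2 ratio -2.66, -3.34 to -2.07). Of its 22 UMIs, 13 came from the 4 MESP1-positive cells of over 40000 UMIs. NANOG had 12.0 CPM in MESP1-positive cells, against 68.5 CPM in MESP1=0 cells (-2.51). SOX2 and NANOG reached 20 CPM only in MESP1=0 cells, and OTX2 only in MESP1-positive cells, so their direction was fixed by that minimum. POU5F1 (OCT4) was detected in every MESP1-positive cell, at 2 to 58 UMIs, with 640 CPM against 1084 CPM in MESP1=0 cells (-0.76). The part of free RNA in these UMIs was not tested, for POU5F1 or for the other genes detected in every cell. LIN28B and ZFP42 had ratios of 0.24 and 0.08.

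The lowest ratios named by the rule were those of ENSG00000282048 and ENSG00000289533 (both -3.18), RMST, a lncRNA partner of SOX2 (-3.08), KCND2, a potassium channel (-2.75), ENSG00000231698 (-2.67), SOX2, NTM, a neural adhesion molecule (-2.59), NANOG, ITGA6, an integrin of epithelial attachment (-2.49) and TMEM178B (-2.49). RMST had 9.51 CPM in MESP1-positive cells, against 80.7 CPM in MESP1=0 cells. RMST, like SOX2 and NANOG, reached 20 CPM only in MESP1=0 cells, so its direction was fixed by that minimum.

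Few markers of amnion, neural, blood and endothelial cells reached 20 CPM in either group. Of 14 amnion and trophoblast genes none reached 20 CPM in either group, 8 were at 0 in MESP1-positive cells (TFAP2A and ISL1 among them), and the summed level was 6.34 CPM there, against 9.36 CPM in MESP1=0 cells. Of 13 neural genes 9 were at 0 in MESP1-positive cells, PAX6 and SOX1 included, and NES was the only one compared (log2 ratio -0.02). Of 13 blood and endothelial genes, TAL1, GATA1, PECAM1 and CDH5 were at 0 in MESP1-positive cells, and KDR was the only one compared. That list summed to 82.4 CPM in MESP1-positive cells, against 78.2 CPM in MESP1=0 cells. Of the 9 germ cell genes 2 were compared, with KIT at a ratio of 0.40 and PDPN at -1.19. Of 5 compared caudal genes 3 were higher and 1 lower (median 1.96), 2 higher and 0 lower among the 3 at the minimum in both groups. The whole caudal list summed to 1270 CPM in MESP1-positive cells, against 317 CPM in MESP1=0 cells. Of 4 axial genes 2 were higher and 0 lower (median 1.04), 1 of the 2 reaching the minimum only in MESP1-positive cells, and the list summed to 683 against 482 CPM.

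Cell cycle genes were at like levels in both groups. None of 15 S phase genes and none of 16 G2 and mitosis genes was 2-fold apart (medians 0.07 and 0.06). Of 10 integrated stress genes, 4 were lower and 0 higher (median -0.53), 2 of the 4 reaching the minimum only in MESP1=0 cells. DDIT4 was at 39.9 CPM in MESP1-positive cells, against 145 CPM in MESP1=0 cells. Of 7 genes induced by dissociation, 2 were higher and 1 lower (median 0.43), and of 6 p53 target genes 2 were lower (median -0.09). Of 14 glycolysis genes 1 was lower (SLC2A1, a glucose transporter; median -0.36), and of 14 cholesterol synthesis genes 0 were 2-fold apart (median -0.19). The part of stress or handling in the ratios above was not tested.

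**Figure D2:**
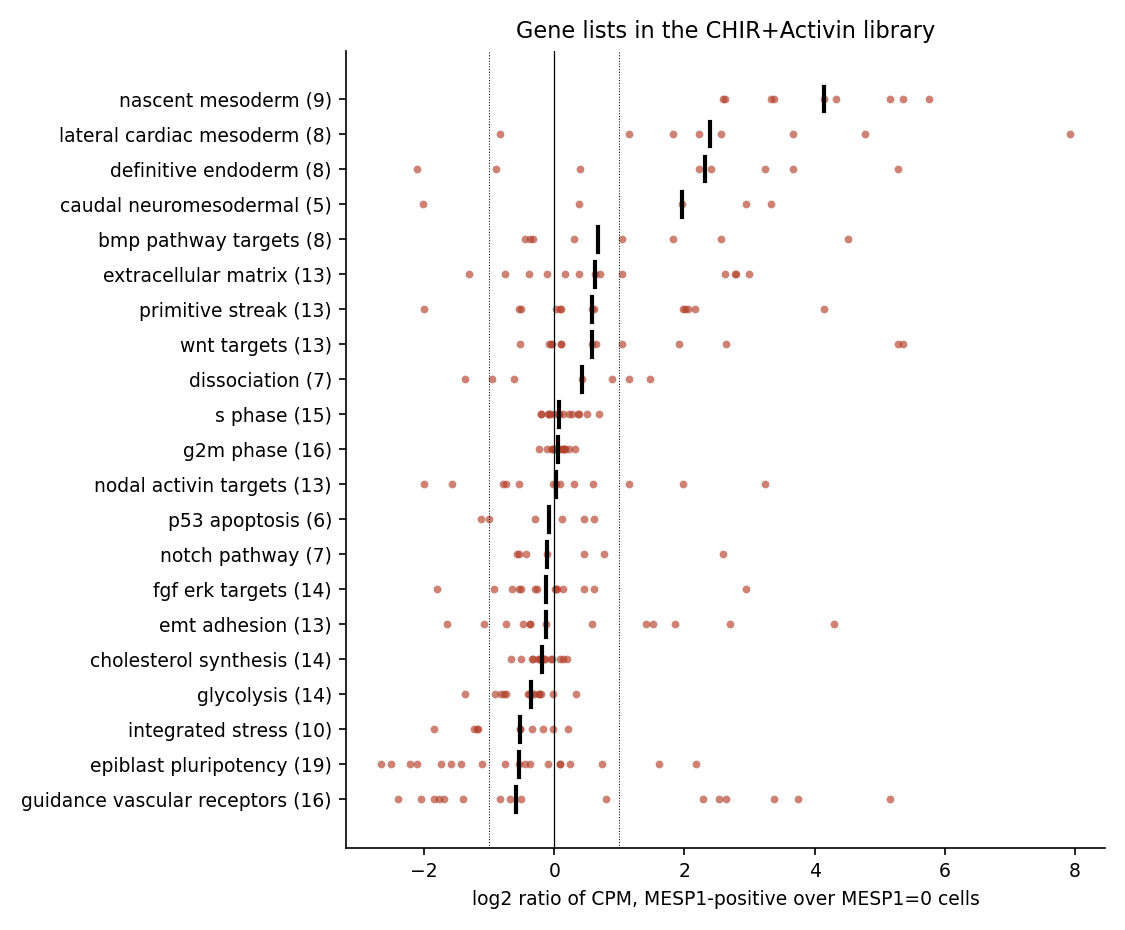
Log2 ratios of CPM, MESP1-positive over MESP1=0 cells, for the genes of each list with 5 or more genes compared (number in brackets). Points are genes, black ticks list medians and dotted lines 2-fold; nascent mesoderm genes sit highest (median 4.14), and guidance and vascular receptors lowest (median -0.59).

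Cells with 1 MESP1 UMI, just outside the rule, lay between the groups in the 3 genes given here. The 145 cells with 1 MESP1 UMI and no SOX17 UMI had 534 CPM of CER1 and 225 CPM of GATA6. The 42 MESP1-positive cells with 2 or 3 MESP1 UMIs, just inside, had 1370 and 491 CPM of these genes, the 37 with 4 or more had 1212 and 579 CPM, and MESP1=0 cells had 136 and 42.1 CPM. SOX2 was at 57.9 CPM in the cells with 1 MESP1 UMI, 6.47 CPM in those with 2 or 3 and 21.1 CPM in those with 4 or more. Of the 17 SOX2 UMIs in the cells with 4 or more, 13 came from 3 cells of over 40000 UMIs. On the SOX17 side, 15 cells were left out for holding at least 2 MESP1 UMIs and at least 1 SOX17 UMI. They had a median of 26464 UMIs, and showed 1535 CPM of CER1, 606 CPM of GATA6, 30.7 CPM of HAND1 and 8.79 CPM of TBX6.

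HAND1 was highest in the cells with most MESP1 UMIs. It was at 0.208 CPM in MESP1=0 cells, 12.1 CPM with 1 MESP1 UMI, 28.5 CPM with 2 or 3 and 72.0 CPM with 4 or more. A HAND1 UMI was found in 10 of the 42 cells with 2 or 3 MESP1 UMIs, in 20 of the 37 with 4 or more and in 8 of the 9 with 10 or more. The log2 ratio of the cells with 4 or more over those with 2 or 3 was 1.34 for HAND1 (0.61 to 2.12), with median depths of 18668 and 17017.5 UMIs. For APLNR the same ratio was 0.56 and its interval held 0 (-0.03 to 1.16), and for DKK1 it was -1.07 (-1.46 to -0.69). TBX6, a marker of the label, had a ratio of 0.01 (-0.92 to 0.94). These classes were cut by the MESP1 counts that the rule used.

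**Figure D3:**
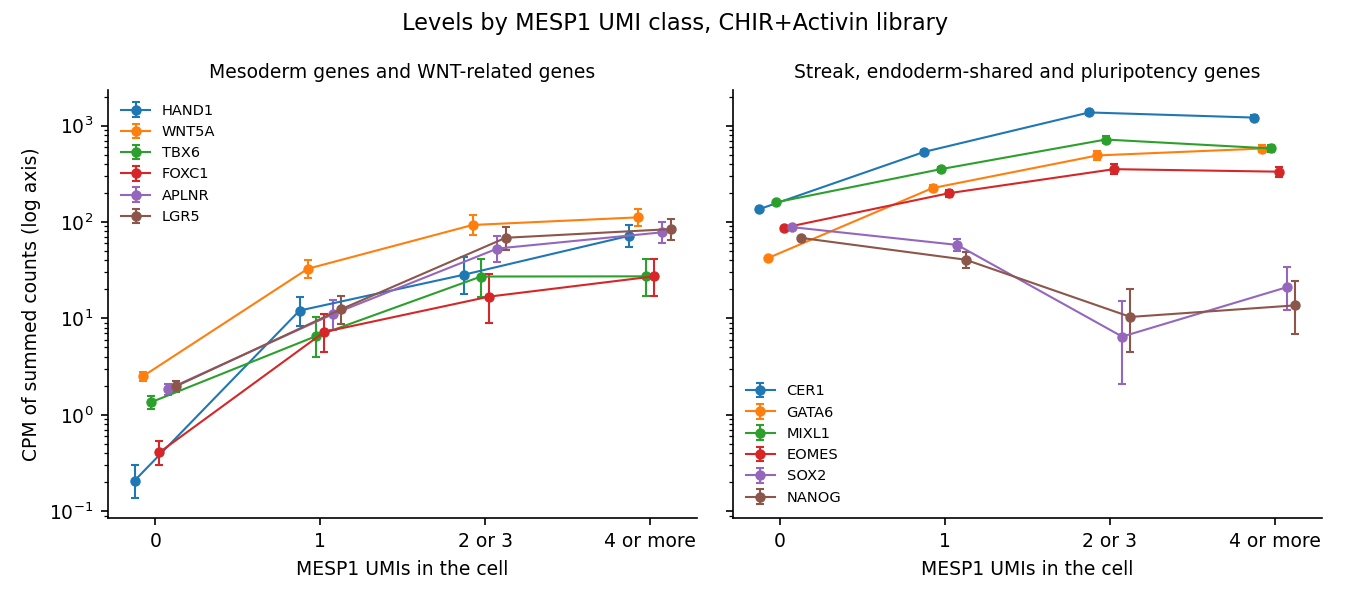
CPM on a log axis in CHIR+Activin cells with 0, 1, 2 or 3, and 4 or more MESP1 UMIs (6617, 145, 42 and 37 cells; the last 3 without SOX17), with exact 95% Poisson intervals. HAND1 is at 0.208, 12.1, 28.5 and 72.0 CPM from left to right, while CER1 is at 136, 534, 1370 and 1212 CPM.

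The 30 MESP1-positive cells with a HAND1 UMI and the 49 without one differed in some genes and were near each other in others. This split was chosen after the values were seen, rests on a gene at 0 in most of the cells, and had median depths of 18635 and 16952 UMIs. WNT5A was at 172 CPM against 57.6 CPM, APLNR at 114 CPM against 34.6 CPM, LHX1 at 502 CPM against 278 CPM, GATA6 at 670 CPM against 447 CPM, LGR5 at 122 CPM against 47.2 CPM and FOXC1 at 36.9 CPM against 12.6 CPM. FOXA2 gave 1 UMI in the HAND1-containing cells and 34 UMIs in the others, where it was found in 14 of 49 cells. CER1 was at 1497 CPM (1402 to 1596) in the HAND1-containing cells, against 1154 CPM (1087 to 1224) in the others. EOMES was at 361 CPM in the HAND1-containing cells and 331 CPM in the others, and MIXL1 at 585 and 687 CPM.

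Streak genes and genes shared with endoderm were found in the same cells, with HAND1 in a part of them. After thinning, MIXL1, EOMES, GATA6 and CER1 were all detected in 68 of 78 MESP1-positive cells (87.2%, 77.7 to 93.7%), against 45.4% of cells with 1 MESP1 UMI and 10.7% of MESP1=0 cells. HAND1 and CER1 were found together in 26.9% of MESP1-positive cells, the share that held HAND1 at all, against 0.127% of MESP1=0 cells. In thinned BMP4 cells chosen by the same rule, HAND1 and CER1 were found together in 35.1%. The set of MIXL1, EOMES, GATA6 and CER1 was found in 49.8% of those BMP4 cells. SOX2 and NANOG were found together in 1 of 78 MESP1-positive cells (1.28%), against 25.4% of MESP1=0 cells.

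Cells with SOX17 offer a second comparison within the library. The 87 cells with at least 2 SOX17 UMIs and no MESP1 UMI, a group chosen for this comparison after values were seen, had a median of 17564 UMIs. MESP1-positive cells were at least 2-fold above these SOX17-positive cells in 88 genes (1.15% of the 7675 compared) and at least 2-fold below them in 137 (1.79%), or 2.93% in either direction. EOMES was at 343 CPM in MESP1-positive cells and 349 CPM in SOX17-positive cells (log2 ratio -0.03, -0.20 to 0.14). GATA6 was at 536 and 605 CPM (-0.18, -0.31 to -0.04), GSC at 81.8 and 87.5 CPM (-0.10, -0.45 to 0.25), CER1 at 1289 and 1696 CPM (-0.40) and LHX1 at 366 and 523 CPM (-0.51). The set of MIXL1, EOMES, GATA6 and CER1 was found in 89.4% of the 85 thinned SOX17-positive cells.

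By list, 5 of 9 compared nascent mesoderm genes and 3 of 8 lateral and cardiac mesoderm genes were at least 2-fold higher in MESP1-positive cells than in SOX17-positive cells, 0 were lower, and the medians were 1.56 and 0.16. Each of these 8 reached 20 CPM only in MESP1-positive cells, so their direction was fixed by the minimum. Of 11 endoderm genes 0 were higher and 5 lower (median -0.40), of which FOXA2 alone reached the minimum in both groups. Of 12 streak genes, all at the minimum in both groups, 4 were higher (TBXT, FGF4, FGF8 and WNT3) and 0 lower. PDGFRA, on the nascent mesoderm list, had 73.5 CPM in MESP1-positive cells, against 103 CPM in SOX17-positive cells (log2 ratio -0.48), and LGR5, on the endoderm list, 76.7 against 45.8 CPM (0.74). HAND1 had 50.7 CPM in MESP1-positive cells and 1 UMI, 0.580 CPM, in SOX17-positive cells (log2 ratio 6.45, 3.93 to 11.77). HAND1 and CER1 together gave UMIs in 0 of 85 thinned SOX17-positive cells, which at that depth allows a share of cells with both UMIs of up to 3.53%; at full depth 1 of 87 had both. WNT5A was at 103 against 12.7 CPM (3.01), TBX6 at 27.3 against 4.64 CPM (2.56), DLL3 at 71.6 CPM with a ratio of 2.70, APLNR at 65.9 against 12.7 CPM (2.37) and TBXT at 197 against 69.0 CPM (1.52). ZEB2 and SNAI1 had ratios of 2.23 and 1.41. WNT5A and ZEB2 too reached 20 CPM only in MESP1-positive cells. Among endoderm genes, FOXA2 was at 22.2 CPM in MESP1-positive cells, against 77.1 CPM in SOX17-positive cells (-1.80). HHEX, a homeobox factor of anterior endoderm, was at 19.6 against 70.1 CPM (-1.84), and PRDM1, a zinc-finger repressor, at 10.8 against 102 CPM (-3.24). CXCR4, a chemokine receptor of endoderm, was at 2.54 against 21.4 CPM (-3.08), and LEFTY1 at 92.5 against 338 CPM (-1.87).

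**Figure D4:**
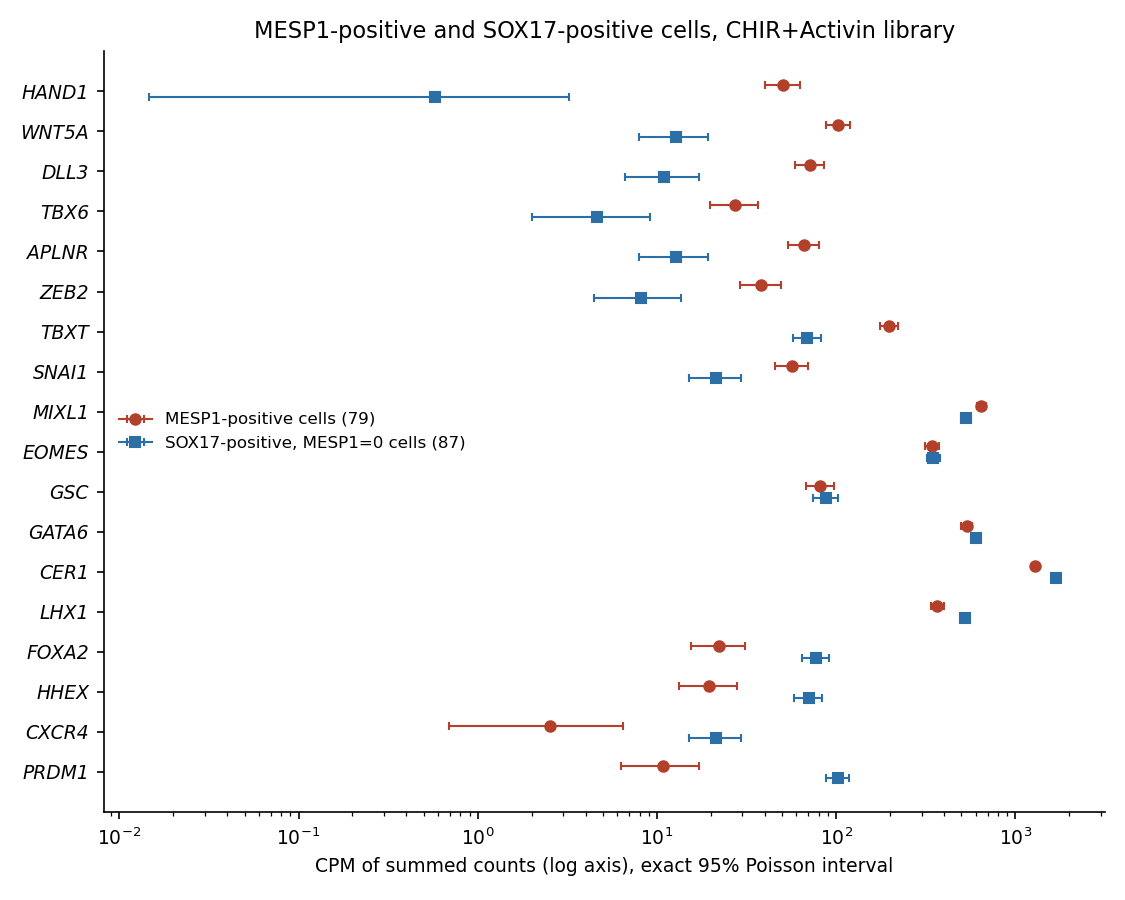
CPM on a log axis with exact 95% Poisson intervals in 79 MESP1-positive cells (circles) and 87 SOX17-positive, MESP1=0 cells (squares) of the CHIR+Activin library. EOMES, GATA6 and GSC nearly coincide, HAND1 to SNAI1 are higher in MESP1-positive cells, and FOXA2, HHEX, CXCR4 and PRDM1 are higher in SOX17-positive cells.

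The BMP4 library gave the other large group chosen by the same rule, 3895 cells with a median of 12645 UMIs, against 18412 in the MESP1-positive CHIR+Activin cells. Treatment and library cannot be told apart here. MESP1, a gene of the rule, was at 238 CPM in CHIR+Activin and 495 CPM in BMP4. Against MESP1-positive BMP4 cells, the MESP1-positive CHIR+Activin cells were 2-fold or more higher in 126 of 7615 genes (1.65%) and lower in 113 (1.48%), 3.14% in all. Of 10 compared nascent mesoderm genes, 0 were higher and 1 was lower (median log2 ratio 0.12). TBX6 was at 27.3 CPM in CHIR+Activin and 24.2 CPM in BMP4 (0.17, -0.30 to 0.61), APLNR at 65.9 and 73.6 CPM (-0.16, -0.45 to 0.12) and FOXC1 at 22.2 and 27.1 CPM (-0.29, -0.81 to 0.19).

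Some NODAL pathway genes were higher under CHIR+Activin. Of 12 compared NODAL and Activin genes, 4 were at least 2-fold higher and 0 lower (median 0.63), and of the 10 at the minimum in both groups 2 were higher, NODAL and CER1. LEFTY1 was at 92.5 CPM in CHIR+Activin, against 13.1 CPM in BMP4 (log2 ratio 2.82, 2.56 to 3.08), NODAL at 181 against 77.1 CPM (1.23) and CER1 at 1289 against 414 CPM (1.64). FGF8, an FGF ligand of the streak, was at 50.1 against 8.96 CPM (2.48), GSC at 81.8 against 26.7 CPM (1.62) and OTX2 at 74.2 against 26.3 CPM (1.49). FOXA2 had 22.2 CPM in CHIR+Activin and 0.951 CPM in BMP4 (4.54). DSCAM, a neural adhesion molecule, was at 286 against 18.4 CPM (3.96). LEFTY1, FGF8, FOXA2 and DSCAM reached 20 CPM only in CHIR+Activin, so their direction was fixed by that minimum. The other genes named for high ratios were LINC02955 (2.80), DNAJC15, a mitochondrial co-chaperone (2.53), ENSG00000254587 (2.30), ENSG00000290032 (2.19) and ENSG00000249988 (1.91).

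Most BMP genes compared were lower under CHIR+Activin. Of 9 compared BMP ligand and target genes, 0 were higher and 6 lower (median -1.48), 5 of the 6 reaching the minimum in both groups. ID1 was at 151 CPM in CHIR+Activin, against 670 CPM in BMP4 (log2 ratio -2.14, -2.33 to -1.96), ID3 at 171 against 650 CPM (-1.93), BMP4 itself at 21.5 against 64.2 CPM (-1.57) and MSX2, a homeobox target of BMP, at 5.07 against 40.6 CPM (-3.00). HAND1 was at 50.7 against 178 CPM (-1.81), and found in 26.9% of thinned CHIR+Activin cells, against 53.8% of thinned BMP4 cells. TBX3, a T-box factor of lateral mesoderm, was at 9.51 against 111 CPM (-3.55). NTS, the neurotensin precursor, was at 300 against 1446 CPM (-2.27), and MESP2 was lower too, at 16.5 CPM with a ratio of -1.98. MSX2, TBX3 and MESP2 reached 20 CPM only in BMP4, so their direction was fixed by that minimum.

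Further genes named for low ratios were PCAT14 (-4.99), HAPLN1, a hyaluronan link protein (-2.93), CLDN10, a claudin (-2.44), SLC7A8, an amino acid transporter (-2.26) and RALYL (-2.20). HPGD, which breaks down prostaglandins, gave 1 UMI in CHIR+Activin, 0.634 CPM against 61.4 CPM in BMP4 (log2 ratio -6.60, -11.90 to -4.12). HAPLN1 and HPGD reached 20 CPM only in BMP4, so their direction was fixed by that minimum.

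**Figure D5:**
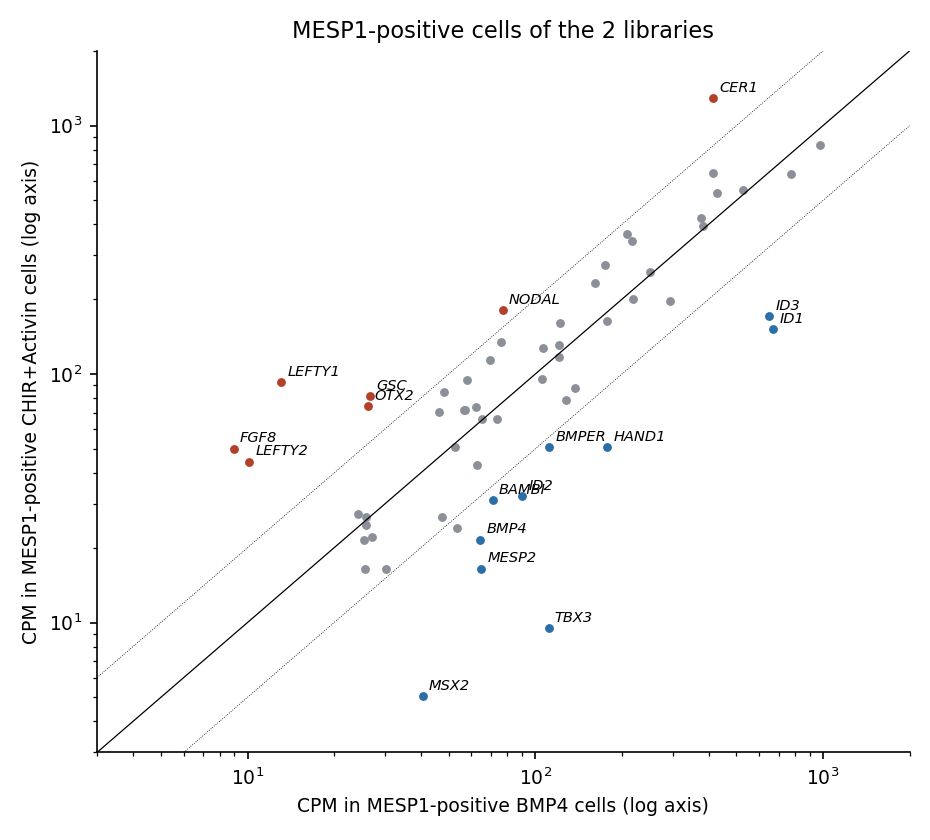
CPM on log axes in MESP1-positive CHIR+Activin cells (vertical) and MESP1-positive BMP4 cells (horizontal) for genes of the mesoderm, streak, pluripotency, NODAL and BMP lists, each point 1 gene. The solid line marks equal levels and dotted lines 2-fold; red genes, such as LEFTY1 and GSC, lie above the line and blue genes, such as ID1, HAND1 and TBX3, below it; grey genes are not labelled.

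Each library's own contrast, MESP1-positive over MESP1=0 cells, had many genes in common. Within BMP4, 163 of 7674 compared genes were 2-fold or more higher (2.12%) and 239 lower (3.11%), 5.24% in all. Of 7358 genes compared in both libraries, 127 were at least 2-fold higher in both, which is 54.5% of the 233 higher within CHIR+Activin and 92.7% of the 137 higher within BMP4. At least 2-fold lower in both were 143 genes, 49.8% of the 287 within CHIR+Activin and 76.1% of the 188 within BMP4. None was 2-fold apart in opposite directions. The cell mixtures behind the MESP1=0 groups differ between the libraries: HAND1 was at 0.208 CPM in MESP1=0 cells of CHIR+Activin, against 90.0 CPM in MESP1=0 cells of BMP4. Its log2 ratio was 7.93 within CHIR+Activin and 0.98 within BMP4.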

How the data were processed

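The deposited matrices hold whole-number UMI counts per gene and barcode, and per the file headers Cell Ranger 8.0.1 made them; Seurat is named in the submitters' processing notes, without a version. Genome build, annotation and strand setting: not given in the sources used here. The CHIR and CHIR+Activin matrices list called cells. For BMP4, barcodes were kept from 10% of the 99th percentile of the 10000 deepest barcodes. Cells needed at least 2000 genes and at most 15% mitochondrial UMIs, which removed 515 of 7391 barcodes in CHIR+Activin, 622 of 7706 in CHIR and 39 of 9440 in BMP4.

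Counts were summed over the cells of a group and scaled to CPM. With 1 library a treatment no test was run and no p-value is given; called means at least 2-fold apart, at 20 CPM or more in either group. A count of 0 allows 3 counts. Python 3.11.15, numpy 2.4.6, scipy 1.17.1, pandas 2.3.3 and scikit-learn 1.9.0 were used. The ratio and its interval were run on simulated Poisson counts. Those counts had no added spread between cells or libraries, so that run checks the computing only. Doublets were scored against simulated ones and kept, and left out in an alternative. Genes named by rule were MIXL1, EOMES and TBX6, the 15 highest and 10 lowest ratios at 50 CPM or more in either group with a UMI in at least 20% of the higher group's cells, the 8 highest and 8 lowest against BMP4 by the same limits, and list genes. The members and the 26 gene lists were chosen with earlier results of these data known. Alternatives changed the MESP1 minimum, depth, doublets, level and cell filters.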

Additional observations from a re-analysis of the deposited data

How the results depend on the processing

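No value reversed under the alternatives run, which were planned except those leaving out cells of over 40000 UMIs and asking 4 MESP1 UMIs in both libraries, chosen after seeing the data. With a MESP1 minimum of 1 UMI, 161 genes were at least 2-fold higher and 37 lower in MESP1-positive than in MESP1=0 cells, and the log2 ratios of MIXL1, EOMES and TBX6 were 1.51, 1.52 and 3.36. Choosing cells after thinning to 10000 UMIs gave 432 higher and 546 lower against MESP1=0 cells, and 211 higher and 251 lower against BMP4 cells. A minimum of 10 CPM gave 457 higher and 525 lower against MESP1=0 cells, and 225 higher and 213 lower against BMP4 cells; 50 CPM gave 166 and 146, and 50 and 46. MIXL1's ratio was 1.92 with comparison cells in the interquartile range of depth, 2.11 for the mean of each cell's own CPM and 2.11 without the highest doublet scores. Of 387 values of named genes under alternatives, 80 moved, 0 reversed and 2 came under 2-fold. With a MESP1 minimum of 1 UMI, ENSG00000289533 and ENSG00000231698 were at log2 ratios of -0.86 and -0.82. Of the headline values, such as gene counts and marker ratios, 19 moved under alternatives and 58 did not.

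No paired analysis was possible because each treatment is 1 library. Depth limits genes at 0: in 79 cells, 0 UMIs allows up to 1.90 CPM.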
